A study of Homo sapiens with 6 samples.

Results

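A group of 10 genes of long non-coding RNA that carry small nucleolar RNAs (snoRNAs) in their introns, SNHG1, SNHG3, SNHG5, SNHG6, SNHG7, SNHG8, SNHG12, SNHG15, GAS5 and ZFAS1, were followed in H69 cells after a histone deacetylase inhibitor. They were taken as the rows of the deposited expression table whose gene symbol is on that list, which gave 10 of 31814 genes. The rows were matched by symbol and not by value, but the list was chosen with earlier results of these data known. Polyadenylated RNA had been sequenced from 3 libraries of cells treated for 24 h with trichostatin A (TSA) at 1 µM and from 3 libraries of cells given the solvent DMSO (vehicle) for the same time. TSA blocks histone deacetylases, which strip acetyl groups from histones. All cells were the H69 line in RPMI medium with serum. The treated samples carry the treatment tag HSA, although TSA is the compound named in the design text and the protocol, and TSA is used here. Whether the 3 libraries of a group were separate cultures is not stated, and the p-values below therefore speak only to the spread among these libraries, which may be technical.

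A snoRNA host gene is transcribed and spliced like a messenger RNA gene. Its snoRNAs are trimmed out of the removed introns and go to the nucleolus, where box C/D snoRNAs guide methylation and H/ACA snoRNAs guide pseudouridylation of ribosomal RNA. The spliced exons that remain are often the lesser product: many host transcripts begin with the pyrimidine tract known from ribosomal protein messages, are bound by ribosomes and are removed by nonsense-mediated decay. GAS5 is the classic case, named for its accumulation in growth-arrested cells. Several of these spliced RNAs have also been studied in cancer cells as RNAs with functions of their own. The host values below are levels per gene in libraries of polyadenylated RNA, and spliced RNA was not measured separately. Many of the snoRNAs lie inside an annotated exon of a host transcript. Host values may therefore include reads of transcripts that keep an intron and reads of snoRNAs.

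Levels are given as TPM, a share of transcripts in which each gene is scaled for its length, so that levels can be compared between genes. The labels do not name the tissue of H69, and the name is used for more than 1 human line. Neuroendocrine markers were high in the vehicle libraries, with INSM1 at 19.1, 26.7 and 28.3 TPM in TSA libraries 1, 2 and 3 and at 538, 693 and 610 TPM in vehicle libraries 1, 2 and 3. The bile duct marker KRT19 was also present, at 66.7 to 118 TPM in TSA libraries and 163 to 259 TPM in vehicle libraries, while KRT7 was low, at 0.437 to 0.966 TPM in TSA libraries and 3.93 to 7.0 TPM in vehicle libraries. The 8 neuroendocrine markers summed to 983 to 1035 TPM in TSA libraries and 1707 to 2089 TPM in vehicle libraries, with 2 higher and 5 lower. Summed fibroblast markers reached 5.15 to 7.05 TPM in TSA libraries and 0.211 to 0.906 TPM in vehicle libraries, and summed blood cell markers 1.16 to 1.74 TPM in TSA libraries and 0.449 to 0.562 TPM in vehicle libraries. Their part in the changes below was not tested. Whole reads recovered from the TPM ratios, which are lower bounds of the depth, ran from 23009041 to 24803310 in TSA libraries and from 22533307 to 26148651 in vehicle libraries. Mitochondrially encoded genes held 16.9%, 7.65% and 10.4% of TPM in TSA libraries 1, 2 and 3, against 12.3%, 4.97% and 10.1% in vehicle libraries 1, 2 and 3.

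All 10 host genes were expressed in every library and passed the filter on low values, 1 TPM or more in at least 3 libraries. In TSA 4 of the 10 were higher than in vehicle (ZFAS1, SNHG3, SNHG7 and SNHG5) and 0 were lower, by limma on log2(TPM + 1) with a Benjamini-Hochberg adjusted p under 0.05 over 17596 tested genes. Among all tested genes 28% were higher and 34.2% lower, 62.2% in all, so that 4 of 10 higher was near the background for so short a list, and 0 of 10 lower was below it. None of the 10 was lower at an unadjusted p under 0.05 in limma, and 0 were lower in any other setting tried. By the authors' deposited table, SNHG3, SNHG7, SNHG12 and ZFAS1 (4 of the 10) were higher and 0 lower at an FDR under 0.05, against 21.8% higher and 19.5% lower among all 31814 genes of that table. The 4 genes called higher were those whose 3 TSA values lay above all 3 vehicle values, an arrangement found in 30.8% of tested genes, and none lay below, an arrangement found in 36.2%. The median log2 fold change of the 10 was 0.26, against −0.095 over all tested genes. A bulk sample cannot tell fewer cells that express a gene from less RNA per cell.

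**Figure D1:**
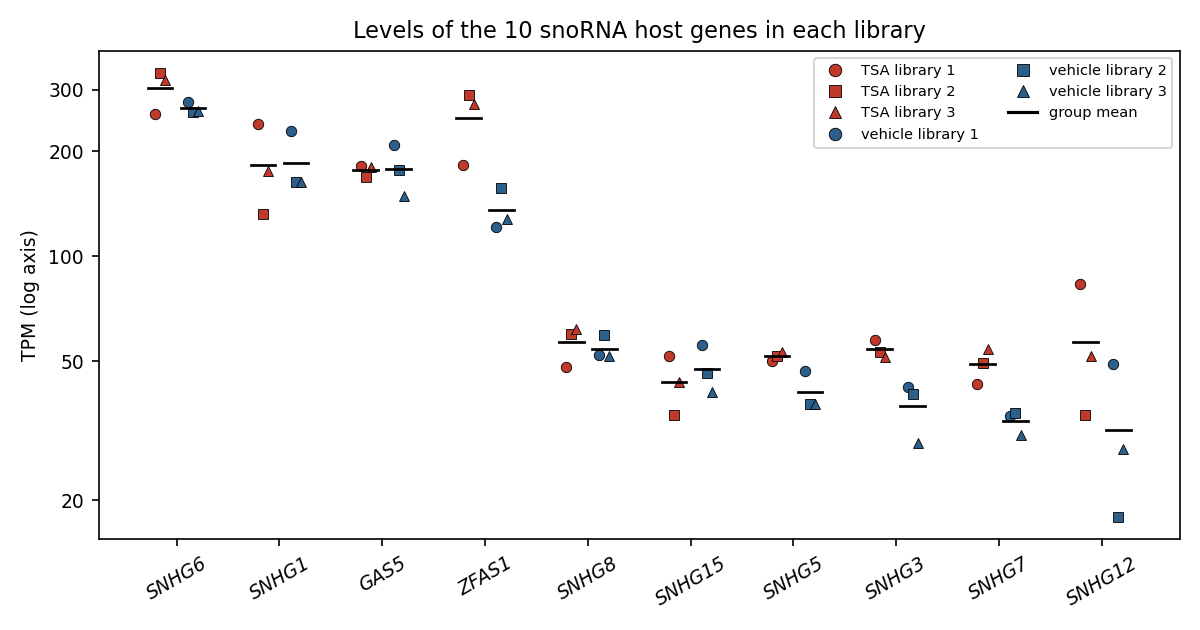
TPM of the 10 host genes on a log axis, with a point for each TSA library (red, left) and vehicle library (blue, right) and a black line at each group mean. SNHG6, SNHG1, GAS5 and ZFAS1 lie above 100 TPM, and the TSA points of ZFAS1, SNHG5, SNHG3 and SNHG7 lie above all their vehicle points.

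The summed level of the 10 hosts was 1192, 1209 and 1266 TPM in TSA libraries 1, 2 and 3 and 1114, 993 and 919 TPM in vehicle libraries 1, 2 and 3. Each TSA sum was above each vehicle sum. The means were 1222 ± 38.8 TPM in TSA and 1009 ± 98.5 TPM in vehicle (SD, n = 3 each), a ratio of 1.21. In TSA the order of mean levels ran SNHG6, ZFAS1, SNHG1, GAS5, SNHG12, SNHG8, SNHG3, SNHG5, SNHG7 and SNHG15. Within that order the only neighbours whose ranges did not overlap were GAS5 and SNHG12. In vehicle it ran SNHG6, SNHG1, GAS5, ZFAS1, SNHG8, SNHG15, SNHG5, SNHG3, SNHG7 and SNHG12, and ranges were apart between SNHG6 and SNHG1 and between ZFAS1 and SNHG8. ZFAS1 ranked 2 in TSA and 4 in vehicle, and SNHG12 ranked 5 in TSA and 10 in vehicle.

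ZFAS1 (ENSG00000177410.8) lies on chromosome 20, starts head to head with ZNFX1, a gene of an RNA helicase-like zinc finger protein, and hosts 3 box C/D snoRNAs. ZFAS1 was at 182, 289 and 273 TPM in TSA libraries 1, 2 and 3 and at 121, 157 and 128 TPM in vehicle libraries 1, 2 and 3. Every TSA library was above every vehicle library, and library 1 was the lowest of its group in TSA and in vehicle. The means were 248 ± 57.3 TPM in TSA and 135 ± 19.1 TPM in vehicle (SD, n = 3 each). The log2 fold change was 0.85 with a standard error of 0.20, a fold of 1.80 with a 95% interval of 1.29 to 2.5 (limma adjusted p 0.00899). The authors' deposited table gave a log2 fold change of 0.96 and an FDR of 0.000283. ZNFX1, across the shared start region, was at 4.51, 1.77 and 2.04 TPM in TSA libraries and at 4.78, 2.16 and 3.84 TPM in vehicle libraries, with overlapping groups (adjusted p 0.459). ZNFX1 overlaps ZFAS1 on the opposite strand in GENCODE 29, and the strand setting used for counting is not known here. Whether reads of the opposite strand were kept apart in these stranded libraries is not known.

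The snoRNAs inside ZFAS1 show what such a host carries. Their sequences are given 5′ to 3′ from GENCODE 29, in lower case, with the core of the C box near the start (TGATG) and the D box near the end (CTGA) in capitals. These are the motifs by which a box C/D snoRNA is recognised, and all 3 sequences hold them.
SNORD12: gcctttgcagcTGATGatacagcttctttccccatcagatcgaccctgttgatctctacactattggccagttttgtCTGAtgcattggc
SNORD12B: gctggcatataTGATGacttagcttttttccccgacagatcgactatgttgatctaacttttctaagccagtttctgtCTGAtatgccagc
SNORD12C: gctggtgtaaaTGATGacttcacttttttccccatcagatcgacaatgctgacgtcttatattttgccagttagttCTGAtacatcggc

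SNHG3 (ENSG00000242125.2), on chromosome 1, hosts the H/ACA snoRNAs SNORA73A and SNORA73B, which take part in the processing of ribosomal RNA rather than in its modification. SNHG3 was at 57.7, 53.2 and 51.3 TPM in TSA libraries 1, 2 and 3 and at 42.2, 40.4 and 29.1 TPM in vehicle libraries 1, 2 and 3. The groups did not overlap, and vehicle library 3 was the lowest. The means were 54.1 ± 3.26 TPM in TSA and 37.3 ± 7.10 TPM in vehicle (SD, n = 3 each). In limma the log2 fold change was 0.54 with a standard error of 0.15 (95% interval 0.18 to 0.91, limma adjusted p 0.0193), and without TSA replicate 2 the call just missed the threshold at an adjusted p of 0.0502. The same DNA strand holds RCC1, the exchange factor of the small GTPase Ran, whose annotated span overlaps SNHG3. RCC1 moved the other way, at 37.6, 43.5 and 43.2 TPM in TSA libraries and 115, 128 and 104 TPM in vehicle libraries (log2 fold change −1.46, standard error 0.11, limma adjusted p 6.04e-05). How reads of any sequence shared by SNHG3 and RCC1 were counted is not known here. The H/ACA snoRNA that the table lists for SNHG3 is shown with the ACA near its end in capitals.
SNORA73B: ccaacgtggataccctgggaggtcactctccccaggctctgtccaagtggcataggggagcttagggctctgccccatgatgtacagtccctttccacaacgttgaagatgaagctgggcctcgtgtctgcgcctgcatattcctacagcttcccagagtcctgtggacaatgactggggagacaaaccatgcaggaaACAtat

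SNHG7 (ENSG00000233016.2), on chromosome 9, hosts H/ACA snoRNAs of the SNORA17 family. SNHG7 was at 43.1, 49.6 and 54.2 TPM in TSA libraries 1, 2 and 3 and at 34.8, 35.5 and 30.7 TPM in vehicle libraries 1, 2 and 3. Every TSA value lay above every vehicle value. The means were 49.0 ± 5.59 TPM in TSA and 33.6 ± 2.58 TPM in vehicle (SD, n = 3 each). Between the groups the log2 fold change was 0.53 with a standard error of 0.12 (95% interval 0.25 to 0.80, limma adjusted p 0.00706). SNHG7 and ZFAS1 were the members called higher under all 19 other settings tried. FAM69B, which overlaps SNHG7 on the opposite strand and was chosen after its values were seen, was at 11.8 ± 1.17 TPM in TSA and 30.9 ± 3.03 TPM in vehicle (SD, n = 3 each), lower in TSA (limma adjusted p 0.000146).

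SNHG5 (ENSG00000203875.6), on chromosome 6, hosts the box C/D snoRNA SNORD50B. SNHG5 was at 50.2, 51.8 and 53.0 TPM in TSA libraries 1, 2 and 3 and at 47.0, 37.8 and 37.8 TPM in vehicle libraries 1, 2 and 3. The TSA libraries were close together, and vehicle library 1 came nearest to them. The means were 51.7 ± 1.39 TPM in TSA and 40.9 ± 5.29 TPM in vehicle (SD, n = 3 each). SNHG5 had a log2 fold change of 0.34 (standard error 0.11, 95% interval 0.075 to 0.60, limma adjusted p 0.0328). The call was lost without TSA replicate 2 (adjusted p 0.0899), TSA replicate 3 (0.107), vehicle replicate 2 (0.0948) or vehicle replicate 3 (0.111), and in limma without a trend (0.0525), and the authors' deposited table gave an FDR of 0.0706. The snoRNA is shown with the C box core and D box in capitals.
SNORD50B: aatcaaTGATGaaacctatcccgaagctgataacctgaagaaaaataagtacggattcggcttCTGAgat

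SNHG12 (ENSG00000197989.9), on chromosome 1 close to SNHG3, hosts the H/ACA snoRNAs SNORA16A, SNORA44 and SNORA61 and the small RNA SNORD99. SNHG12 was at 83.2, 35.2 and 51.9 TPM in TSA libraries 1, 2 and 3 and at 49.1, 17.9 and 28.0 TPM in vehicle libraries 1, 2 and 3. The groups overlapped, since vehicle library 1 was above TSA library 2. In each group library 1 was the highest and library 2 the lowest, and the TSA value was above the vehicle value of the same number in all 3 cases, with ratios of 1.69, 1.96 and 1.85. The means were 56.8 ± 24.4 TPM in TSA and 31.7 ± 15.9 TPM in vehicle (SD, n = 3 each). The log2 fold change was 0.85, the same size as that of ZFAS1, but with a standard error of 0.43 and a 95% interval of −0.17 to 1.87, and it did not pass the test (limma adjusted p 0.126). It passed without vehicle replicate 1 (log2 fold change 1.22, adjusted p 0.0385) and without both replicate 1 libraries (0.90, adjusted p 0.0348). With a replicate block in the fit SNHG12 was called at 0.85 (limma adjusted p 0.000331), and whether the numbers pair the libraries is not settled. The authors' deposited table gave a log2 fold change of 0.89 and an FDR of 0.0153. SNORD99 is shown with the D box in capitals.
SNORD99: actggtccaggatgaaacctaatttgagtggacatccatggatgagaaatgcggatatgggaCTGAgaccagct

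**Figure D2:**
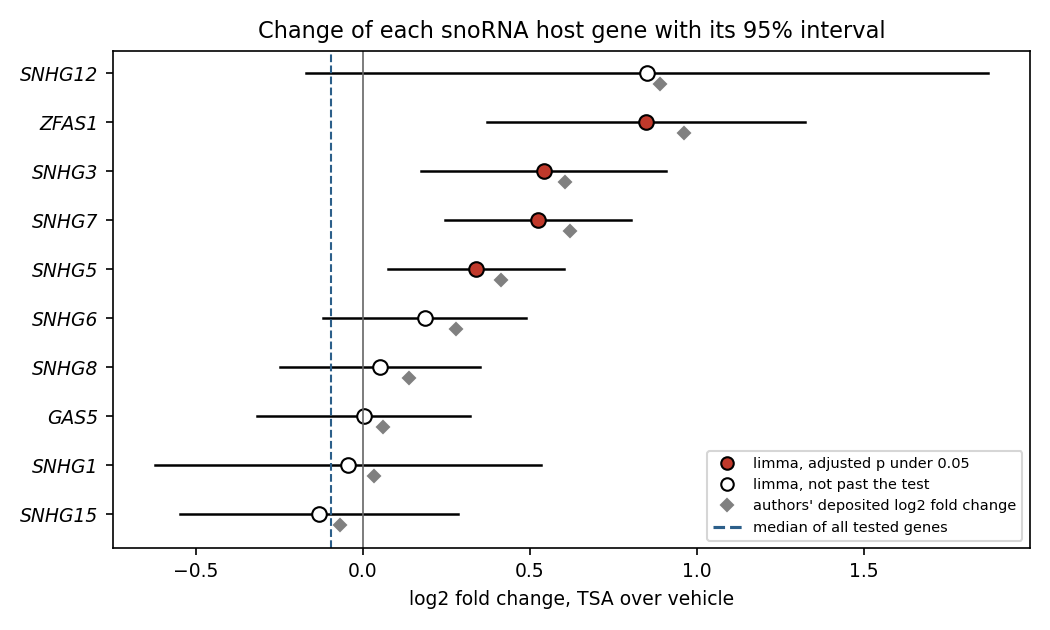
Log2 fold change of each host gene, TSA over vehicle on the log2(TPM + 1) scale, with limma's 95% interval (bars), and the authors' deposited log2 fold change (grey diamonds). Filled points passed an adjusted p under 0.05: the interval of SNHG12 runs from −0.17 to 1.87 and crosses 0, while that of ZFAS1 runs from 0.37 to 1.32.

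SNHG6, SNHG1 and GAS5 were among the most abundant hosts in both groups, and none of the 3 passed the test. SNHG6 (ENSG00000245910.4), host of SNORD87, was at 255, 335 and 320 TPM in TSA libraries 1, 2 and 3 and at 276, 259 and 260 TPM in vehicle libraries 1, 2 and 3. TSA library 1 was below all vehicle libraries and the other TSA libraries were above them. The log2 fold change of SNHG6 was 0.19 with a standard error of 0.13 and a 95% interval of −0.12 to 0.49 (limma adjusted p 0.245), and without TSA replicate 1 it was 0.31 and passed (adjusted p 0.0297).

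SNHG1 (ENSG00000255717.2) hosts a run of box C/D snoRNAs on chromosome 11. SNHG1 was at 239, 132 and 176 TPM in TSA libraries 1, 2 and 3 and at 228, 163 and 163 TPM in vehicle libraries 1, 2 and 3. The groups overlapped throughout. The log2 fold change of SNHG1 was −0.045 with a standard error of 0.24, and its 95% interval of −0.62 to 0.53 leaves room for a change in either direction (limma adjusted p 0.884). SLC3A2, which encodes the heavy chain of amino acid transporters and starts head to head with SNHG1, was at 142, 153 and 155 TPM in TSA libraries and 84.6, 132 and 98.5 TPM in vehicle libraries, higher in TSA (log2 fold change 0.53, standard error 0.17, adjusted p 0.0280). That call of SLC3A2 was lost without TSA replicate 2 (adjusted p 0.0747), TSA replicate 3 (0.0848), vehicle replicate 1 (0.0744) or vehicle replicate 3 (0.0892). The call was also lost without both replicate 1 libraries (limma adjusted p 0.0611) and with no filter on low values (0.0510).

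GAS5 (ENSG00000234741.3), the growth arrest RNA that can also bind the glucocorticoid receptor, was at 181, 168 and 181 TPM in TSA libraries 1, 2 and 3 and at 208, 177 and 149 TPM in vehicle libraries 1, 2 and 3. The vehicle values lay on both sides of the TSA values. The means were 177 ± 7.27 TPM in TSA and 178 ± 29.4 TPM in vehicle (SD, n = 3 each). GAS5 had a log2 fold change of 0.0024 with a 95% interval of −0.32 to 0.32 (limma adjusted p 0.989), a fold between 0.803 and 1.25. GAS5-AS1 and ZBTB37 overlap GAS5 on the opposite strand, with the same limit on strand as above. ZBTB37, a zinc finger gene that starts head to head with GAS5, was at 7.21, 1.18 and 1.55 TPM in TSA libraries and 5.66, 1.26 and 2.80 TPM in vehicle libraries, with overlapping groups.

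SNHG8 (ENSG00000269893.2), host of SNORA24, was at 48, 59.9 and 62.0 TPM in TSA libraries 1, 2 and 3 and at 52.1, 59.3 and 51.7 TPM in vehicle libraries 1, 2 and 3. SNHG15 (ENSG00000232956.4), host of SNORA9, was at 51.8, 35.2 and 43.5 TPM in TSA libraries 1, 2 and 3 and at 55.5, 46.1 and 40.9 TPM in vehicle libraries 1, 2 and 3. In both genes the groups overlapped. SNHG8 had a log2 fold change of 0.051 (95% interval −0.25 to 0.35, limma adjusted p 0.742) and SNHG15 had −0.13 (95% interval −0.55 to 0.28, limma adjusted p 0.540).

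The count of hosts called higher depended on which libraries were used. It was 2 of 10 without TSA replicate 2, when ZFAS1 and SNHG7 were left and 21% of all tested genes were higher and 31.9% lower. It was 6 of 10 without both replicate 1 libraries, when SNHG6 and SNHG12 were added. Among all genes tested without both replicate 1 libraries 28.4% were higher and 36.4% lower. The hosts differed in how their libraries spread. In 5 of the 10 library 1 was the highest of its group in TSA and in vehicle (SNHG1, SNHG3, SNHG12, SNHG15 and GAS5), and in ZFAS1 it was the lowest in both groups. SNHG12 varied most, with a coefficient of variation of 42.9% in TSA and 50.3% in vehicle, and SNHG1 had 29.6% in TSA and 20.3% in vehicle. The nuclear long non-coding RNA MALAT1 followed the order of SNHG12, at 760, 95.7 and 190 TPM in TSA libraries 1, 2 and 3 and 179, 39.0 and 93.8 TPM in vehicle libraries 1, 2 and 3, as did the mitochondrial share. Their part in the spread of the hosts was not tested. With TPM rescaled without the mitochondrially encoded genes, 4 of the 10 hosts were higher and 0 lower, against 28.9% higher and 32.1% lower among all genes tested in that scaling.

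**Figure D3:**
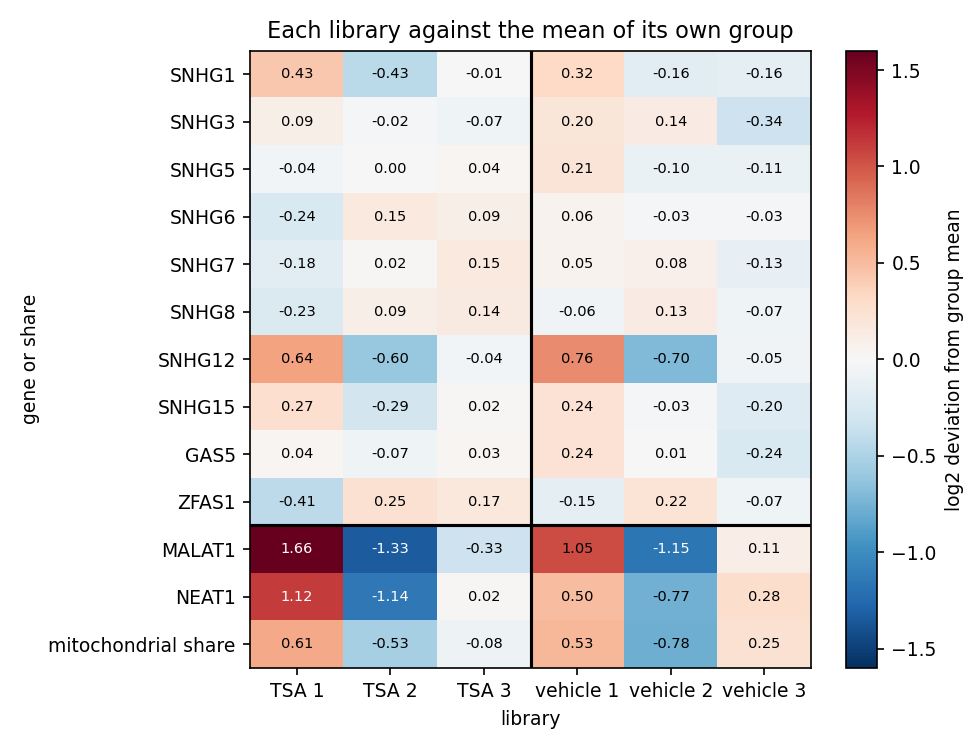
Log2 deviation of each library from the mean of its own group for the 10 host genes, for MALAT1 and NEAT1 and for the mitochondrial share of TPM; red is above and blue below that mean. SNHG12 deviates by 0.64 in TSA library 1 and −0.60 in TSA library 2, and by 0.76 in vehicle library 1 and −0.70 in vehicle library 2, while ZFAS1 deviates the other way, by −0.41 in TSA library 1 and 0.25 in TSA library 2.

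The start regions of the hosts share letters that the choice of genes did not use. RefSeq promoter entries on GRCh38.p14 were matched for 8 of the 10 genes, and SNHG6 and SNHG15 had none. Each window of 80 bases runs from 60 bases before the annotated start to the first 20 bases of the transcript, on the strand of the gene. A TATA box (TATATAA or TATAAAA, 60 to 11 bases before the start, gene strand alone) was present in 4 of the 8, against 1.61% of all 35116 promoter entries. A tract of C followed by at least 4 pyrimidines, beginning within 10 bases of the start, was present in 5 of the 8, against 32.5% of all entries. Both were present in SNHG5, SNHG7, SNHG12 and ZFAS1, 4 of the 8, against 0.544% of all entries. These windows are shown because they hold 3 of the 4 genes that were higher and SNHG12, with GAS5 for comparison. The motif letters are in capitals. In SNHG7 the capitals of the tract cover part of a longer pyrimidine run that begins more than 10 bases before the start. Another such tract in SNHG7 begins within 10 bases of the start and is not marked. GAS5 had neither motif in this window, which is placed at the start that RefSeq annotates. That start may not be the one used by the transcripts known for a tract.
ZFAS1, chr20:49278582-49278661, plus strand: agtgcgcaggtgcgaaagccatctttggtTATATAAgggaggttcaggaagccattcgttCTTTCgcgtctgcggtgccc
SNHG7, chr9:136728165-136728244, minus strand: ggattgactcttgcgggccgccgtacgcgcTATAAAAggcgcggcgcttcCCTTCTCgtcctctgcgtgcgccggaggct
SNHG5, chr6:85678714-85678793, minus strand: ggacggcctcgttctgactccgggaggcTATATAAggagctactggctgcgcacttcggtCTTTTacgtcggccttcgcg
SNHG12, chr1:28581854-28581933, minus strand: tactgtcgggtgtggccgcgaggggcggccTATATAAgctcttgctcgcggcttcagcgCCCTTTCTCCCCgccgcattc
GAS5, chr1:173869026-173869105, minus strand: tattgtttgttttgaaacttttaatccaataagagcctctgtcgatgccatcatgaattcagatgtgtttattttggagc
SNHG3, which was higher, and SNHG1, which did not pass the test, also had neither motif, and SNHG8, which did not pass, had the tract without the TATA box. A match is a description of letters at an annotated start, and the starts used in H69 cells were not measured here.

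The snoRNAs themselves lack a poly(A) tail, and those matched by gene ID had few reads in these libraries of polyadenylated RNA. All 334 rows named SNORD, SNORA or SCARNA together held 21480 to 24719 recovered reads in TSA libraries. In vehicle libraries they held 21317 to 24223. The search of GENCODE 29 found 25 snoRNA entries inside 9 of the members and 0 inside GAS5. The 0 does not mean that GAS5 carries none, since SNORD44, SNORD47 and SNORD74 to SNORD81 are listed for it. SNORD50A, listed for SNHG5, was not among the 25 entries either. Of the 25 entries 6 had a row of the same gene ID in the deposited table. Their recovered reads summed to 166, 27 and 41 in TSA libraries 1, 2 and 3 and to 139, 15 and 57 in vehicle libraries 1, 2 and 3. In both groups library 1 held the most and the groups overlapped. SNORD87 of SNHG6 had 94, 15 and 26 reads in TSA libraries and 98, 9 and 38 in vehicle libraries, and SNORD99 of SNHG12 had 33, 10 and 7 reads in TSA libraries and 23, 5 and 12 in vehicle libraries. SNORD12, SNORD12B and SNORD12C of ZFAS1 together had 26, 2 and 5 reads in TSA libraries and 8, 0 and 4 in vehicle libraries, beside 1454 to 2362 reads of ZFAS1 in TSA libraries and 887 to 1083 in vehicle libraries. SNORA73B of SNHG3 had 13, 0 and 3 reads in TSA libraries and 10, 1 and 3 in vehicle libraries. None of the 6 rows passed the test (limma adjusted p 0.121 to 0.946), which does not show that the snoRNAs were unchanged. Matched by symbol alone, SNORD78, listed for GAS5, did not pass (adjusted p 0.653). A row with the symbol SNORA9, at no more than 2.32 TPM in any library, was lower (adjusted p 0.0197). Another SNORA9 row did not pass (adjusted p 0.913), and whether either lies inside SNHG15 is not known here. Reads of a host exon that overlaps a snoRNA could not be told from reads of the snoRNA.

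Other snoRNA hosts were grouped by the kind of gene, and their counts are set beside the 28% higher and 34.2% lower among all tested genes, with no test between the groups. Of 26 ribosomal protein genes with intronic snoRNAs, whose messages start with the same kind of tract, 14 were higher and 0 lower in TSA (limma), and the median log2 fold change was 0.59. RPS12 had the greatest rise among them, at 2135 ± 398 TPM in TSA and 869 ± 134 TPM in vehicle (SD, n = 3 each). The 14 became 9 without TSA replicate 3 and 8 without vehicle replicate 3, and their summed level was 16116, 23301 and 22105 TPM in TSA libraries and 12300, 15379 and 11700 TPM in vehicle libraries, with library 2 the highest of its group in both. Of 32 other protein-coding hosts 6 were higher and 10 lower, and their median was −0.17. EEF2, elongation factor 2, rose to 2294 ± 220 TPM in TSA, against 974 ± 34.1 TPM in vehicle, and EIF4G2, a translation initiation factor, fell to 120 ± 8.17 TPM in TSA, against 676 ± 27.1 TPM in vehicle (SD, n = 3 each). Of 9 tested long non-coding hosts outside the 10, 3 were higher and 2 lower (median 0.28), and 1 was lower without TSA replicate 3, vehicle replicate 2 or vehicle replicate 3. SNHG9 rose to 111 ± 26.4 TPM in TSA, against 37.3 ± 5.49 TPM in vehicle, and C6orf48 fell to 105 ± 6.98 TPM in TSA, against 199 ± 13.9 TPM in vehicle (SD, n = 3 each).

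Of 14 tested long non-coding RNAs that are not known as snoRNA hosts 3 were higher and 5 lower (median −0.40). These were 21.4% and 35.7%, near the 28% and 34.2% of all tested genes. NEAT1, the scaffold of paraspeckles, was at 515, 107 and 240 TPM in TSA libraries 1, 2 and 3 and 51.0, 21.2 and 43.7 TPM in vehicle libraries 1, 2 and 3 (log2 fold change 2.68, standard error 0.59, limma adjusted p 0.00689). MIAT was at 9.42, 1.33 and 2.68 TPM in TSA libraries and 166, 27.2 and 82.4 TPM in vehicle libraries (log2 fold change −4.03, standard error 0.77, limma adjusted p 0.00362). These changes were greater than that of any of the 10 hosts, whose fold changes lay between −0.13 and 0.85 on the log2 scale.

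**Figure D4:**
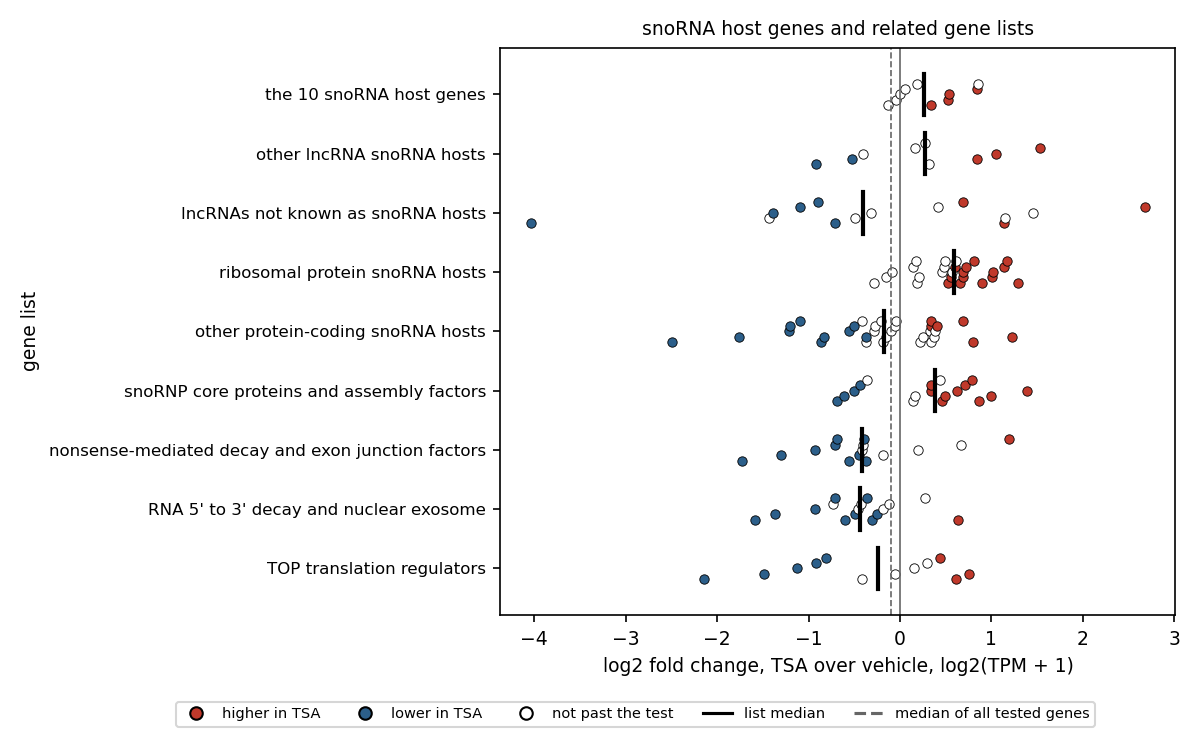
Log2 fold change of every tested gene of the 10 hosts and of 8 related lists, TSA over vehicle on the log2(TPM + 1) scale, with list medians (black) and the median of all tested genes (dashed, −0.095). The 10 hosts run from −0.13 to 0.85 and no point among them or among the ribosomal protein hosts is called lower, whereas the non-host long non-coding RNAs run from −4.03 to 2.68.

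Transcripts of proteins that act on hosts and their snoRNAs moved in both directions. Their counts are set beside the 28% higher and 34.2% lower among all tested genes. Of 18 genes of snoRNA-protein particles and their assembly 10 were higher and 4 lower in TSA (limma), their median log2 fold change was 0.39, and 6 were higher without TSA replicate 3. RUVBL2, an ATPase of the assembly complex, rose to 206 ± 18.8 TPM in TSA, against 78.4 ± 8.98 TPM in vehicle, and ZNHIT6, a box C/D assembly factor, fell to 17.0 ± 0.863 TPM in TSA, against 28.0 ± 1.78 TPM in vehicle (SD, n = 3 each). Of 15 genes of nonsense-mediated decay and the exon junction complex 1 was higher and 9 lower (6.67% and 60%), with a median of −0.41. Whether these genes bear on the host levels was not tested. EIF4A3, the helicase core of the exon junction complex, was the higher member at 334 ± 70.0 TPM in TSA and 144 ± 22.4 TPM in vehicle, and SMG9, a partner of the kinase SMG1, fell to 10.0 ± 2.70 TPM in TSA, against 34.8 ± 1.31 TPM in vehicle (SD, n = 3 each).

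Of 16 genes of RNA decay and the nuclear exosome 1 was higher and 9 lower, with a median of −0.44. These were 6.25% and 56.2%, against 28% and 34.2% of all tested genes. The exosome nuclease gene DIS3 was higher, at 51.9 ± 8.66 TPM in TSA and 32.7 ± 2.10 TPM in vehicle, and EXOSC10, the nuclear exosome nuclease that trims snoRNAs, fell to 31.0 ± 4.73 TPM in TSA, against 94.8 ± 8.25 TPM in vehicle (SD, n = 3 each). Under a median-of-ratios scaling, a quantile scaling or voom on recovered reads 2 of these 16 were higher and 5 lower. Of 12 genes that control the translation of messages with a pyrimidine tract 3 were higher and 5 lower. At 25% and 41.7% they were near the shares of all tested genes. Among the 12, 1 was higher without TSA replicate 2, TSA replicate 3 or vehicle replicate 1. TSC2, an inhibitor of the kinase mTOR, was at 33.9 ± 8.42 TPM in TSA and 19.3 ± 2.53 TPM in vehicle, and TIA1, which binds such messages under stress, fell to 17.8 ± 4.05 TPM in TSA, against 81.2 ± 8.96 TPM in vehicle (SD, n = 3 each).

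Genes next to the hosts moved in both directions. Of the 11 tested genes in the list of neighbours 4 were higher and 3 lower. At 36.4% and 27.3% these counts were near the 28% higher and 34.2% lower among all tested genes. Of the 11, 1 was higher without TSA replicate 2 or vehicle replicate 1, and 2 without TSA replicate 3 or vehicle replicate 3. RCC1 and SLC3A2 are given above. SYNCRIP, beside SNHG5, encodes an RNA-binding protein and was at 81.5 ± 16.8 TPM in TSA and 231 ± 18.0 TPM in vehicle (limma adjusted p 0.000209), opposite in direction to SNHG5. TRNAU1AP, which lies beside SNHG3 and overlaps SNHG12 on the opposite strand, was at 15.3 ± 1.93 TPM in TSA and 25.1 ± 3.45 TPM in vehicle (adjusted p 0.00619). TCF24, beside SNHG6, was at 32.2 ± 0.900 TPM in TSA and 17.3 ± 1.41 TPM in vehicle (adjusted p 0.000361). CCM2, beside SNHG15, was at 26.2 ± 4.93 TPM in TSA and 17.2 ± 1.47 TPM in vehicle (SD, n = 3 each, adjusted p 0.0190), a call lost without TSA replicate 2 (0.0618), TSA replicate 3 (0.0692), vehicle replicate 1 (0.0601) or vehicle replicate 3 (0.0635). MCMDC2, which overlaps SNHG6 on the opposite strand with the same limit on strand as for ZFAS1, PRSS12 beside SNHG8, ZBTB37 and ZNFX1 did not pass the test, and MYO1G beside SNHG15 was below the filter, at 0.108 to 0.318 TPM in TSA libraries and 0.0490 to 0.138 TPM in vehicle libraries.

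Outside the list, the genes whose profile was most like the median profile of the 10 hosts were RP11-20G6.3, PRPF6, CSRNP2, C9orf114 and ZNF263. Likeness was the Euclidean distance of centred log2(TPM + 1) over the 6 libraries, among tested genes with a mean of 5 TPM or more. The distances were 0.0493 for RP11-20G6.3, 0.0896 for PRPF6, 0.120 for CSRNP2, 0.121 for C9orf114 and 0.131 for ZNF263. SNHG5, at 0.142, was the host nearest to that median, and SNHG12, at 1.45, was the farthest. PRPF6, which encodes a splicing factor of the spliceosome, was at 129, 126 and 127 TPM in TSA libraries 1, 2 and 3 and 115, 108 and 95.7 TPM in vehicle libraries 1, 2 and 3.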

How the data were processed

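Per the labels' protocols, polyadenylated RNA of 3 TSA and 3 vehicle samples was made into stranded libraries and sequenced on an Illumina NextSeq. The submitters' processing notes name STAR 2.5.3a, featureCounts, edgeR, FastQC 0.11.2, Picard 1.127 and the build hg19, with no roles given. The authors deposited expression as TPM over 31814 genes, in columns that each sum to 1000000 and hold no depth. Their own comparison, per the file headers, holds a log2 fold change, a mean log2 level, a likelihood ratio score, and a p-value and an FDR per gene, and positive means higher in TSA.

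For the 27644 genes above 0 in 2 or more libraries, TPM ratios gave whole reads in 100% of cases (relative tolerance 1e-12), as the smallest whole numbers with those ratios. Replicate libraries differed beyond sampling noise (chi-square per degree of freedom 7.97 to 105), so none was taken for a duplicate.

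The test was limma 3.58.1 in R 4.3.3 (eBayes with trend) on log2(TPM + 1), two-sided, for the 17596 genes that reached 1 TPM in 3 or more of the 6 libraries, with Benjamini-Hochberg adjustment over all of them and a threshold of 0.05. The added 1 makes fold changes of low genes too small. The design foresaw edgeR's count test had the table held counts, which it does not. When tested on simulated data with known changes, the limma test used here made false calls above the nominal rate. The 10 genes and the lists were chosen with earlier results of these data known, so list counts are descriptions. Named were the 10 genes, the called gene with the greatest rise and fall of each list, adjacent neighbours, snoRNAs at 1 TPM or more in at least 3 libraries, and the 5 genes of most similar profile. Gene positions, snoRNAs and their sequences came from GENCODE 29 and promoters from RefSeq, both on GRCh38 and not on the build of the files, so no positions are given in hg19. Matching to these references was by gene ID, apart from the SNORD78 and SNORA9 rows matched by symbol. METTL14, listed as a neighbour, was not adjacent and is counted only. Other settings were pseudocounts of 0.1 and 0.5, other filters, other scalings, limma without trend or with robust variance, voom, a replicate block and leaving out libraries. Figures were drawn with matplotlib 3.10.9. Single values of some marker and neighbouring genes are not reported here.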

Additional observations from a re-analysis of the deposited data

How the results depend on the processing

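Each fold change was recomputed under 19 other settings, and 167 of the 190 values of the 10 hosts kept their direction and their side of the threshold. ZFAS1 and SNHG7 were called higher under all 19, with log2 fold changes of 0.72 to 1.05 and 0.45 to 0.67, and 0 hosts were called lower under any of them. Leaving out each library in turn gave 2 to 5 hosts higher, a summed ratio of 1.16 to 1.28, and log2 fold changes of −0.26 to 0.17 for SNHG1, 0.38 to 0.64 for SNHG3, 0.29 to 0.44 for SNHG5, 0.11 to 0.31 for SNHG6, −0.017 to 0.16 for SNHG8, 0.51 to 1.22 for SNHG12, −0.26 to 0.0095 for SNHG15, −0.12 to 0.12 for GAS5 and −0.71 to 0.29 for ZBTB37. Without both replicate 1 libraries SNHG6 (0.34) and SNHG12 (0.90) were called and the summed ratio was 1.29. Without a trend SNHG5 lost its call (0.34, adjusted p 0.0525). SNHG1 turned positive under median-of-ratios scaling (0.075), quantile scaling (0.090) and voom (0.089), and SNHG15 under quantile scaling (0.021) and voom (0.00096), none of them past the test. Median-of-ratios scaling moved the median of all genes to 0.017, against −0.095 as deposited, that of the 10 hosts to 0.38, and the summed ratio to 1.32. The cause of these shifts was not tested.

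In the lists, other long non-coding hosts had 1 lower without a filter, under median-of-ratios scaling and in voom, snoRNA-protein genes had 2 lower under median-of-ratios scaling, decay and exosome genes had 2 higher and 5 lower under both scalings and in voom, and neighbours had 2 higher without both replicate 1 libraries. Leaving out each library gave 8 to 20 ribosomal protein hosts higher, 6 to 11 snoRNA-protein genes higher, 1 to 2 translation regulators higher, 1 to 4 neighbours higher and 1 to 2 other long non-coding hosts lower. Of 25 named genes of the lists 20 kept direction and call in every setting, and CCM2, MCMDC2, SLC3A2, TRNAU1AP and ZBTB37 did not.

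Whether replicate numbers pair the libraries was not settled. Deviations of same-numbered libraries from their group means correlated at 0.633, 0.590 and −0.0729 over 17596 genes, for numbers 1, 2 and 3. TSA libraries 1 and 2 correlated best with the vehicle library of their own number, and TSA library 3 with vehicle library 2 (0.381). With the replicate block 5 of 10 hosts were higher, against 32% of all genes, and 0 lower; SNHG12 was called at 0.85 (adjusted p 0.000331), non-host long non-coding RNAs had 5 higher and other protein-coding hosts 10 higher. The hosts had at least 321 recovered reads in each library, a lower bound, and each group had 3 libraries.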
